A study of Mus musculus with 6 samples.

Results

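The genes described here are Kl, which encodes Klotho, and a set of genes grouped with it as encoding proteins that the choroid plexus epithelium secretes or sheds. The set was given by name as Kl, Enpp2, Ace, F5, Wfdc2, Calml4, Tmem72, Cst3, Vat1l and Cab39l, and a probe set was taken as a gene's when the platform annotation gave that symbol alone. Of the 10 genes, 9 were measured, through 15 of the 45037 probe sets other than controls, and Enpp2 was not analysed here.

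The study compared gene expression in choroid plexus epithelium, taken from whole brain, between B10.PL RAG-/- mice and B10.PL WT mice. RAG1 and RAG2 are both needed to assemble antigen receptor genes, so that mice lacking either have no mature lymphocytes of the T and B lineages. Which one had been disrupted, the age of the mice and the number of animals behind a sample are not in the labels. The sex of the mice is not stated here and was part of no fit. There were 3 RAG-/- and 3 WT samples of total RNA, each on 1 single-colour array, and since separate animals are not stated, p-values cover only the sample-to-sample spread, part of which may be technical. Title codes join the arrays into 3 pairs of RAG-/- with WT, numbered here like the replicates. In pair 1 the descriptions say that the samples had been reversed, and they give the opposite genotype to the titles. Genotypes are those of the descriptions unless the titles are named. By title, the RAG-/- arrays were WT replicate 1, RAG-/- replicate 2 and RAG-/- replicate 3.

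The choroid plexus makes cerebrospinal fluid, and its epithelium releases proteins into it. Klotho is a membrane protein with a large extracellular part, which acts as co-receptor for the hormone FGF23 and can be cut off by the proteases ADAM10 and ADAM17 to circulate in blood and cerebrospinal fluid. Angiotensin-converting enzyme, from Ace, is likewise anchored in the membrane and shed. Cystatin C (Cst3), coagulation factor V (F5) and WFDC2 are secreted. The remaining genes do not go with the name of the set: Calml4 encodes a calmodulin-like protein of microvilli, Cab39l a cytoplasmic scaffold of kinase complexes, Vat1l an intracellular protein and Tmem72 a membrane protein.

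The epithelial signal of the samples was read from 11 measured marker genes, among them Ttr, Kcnj13, Folr1, Aqp1 and Otx2. Their lowest value on any array was 1850, that of Aqp1 in RAG-/- replicate 2, where the median intensity of an array was between 77.8 and 97.1. The summed intensity of these 11 markers was 172175, 88716 and 168381 in RAG-/- replicates 1, 2 and 3, against 136352, 156059 and 163652 in WT replicates 1, 2 and 3. RAG-/- replicate 2 thus had the lowest epithelial signal. That array also had the highest sum of 7 neuronal markers, 64008, where the other arrays lay between 7949 and 39039. Of the neuronal markers, Snap25 was highest in WT replicate 2 and Slc17a7 in RAG-/- replicate 1, and the rest in RAG-/- replicate 2. The sum of 7 astrocyte markers was the highest in RAG-/- replicate 2 too, 56986, where the others lay between 27211 and 48659. Of the astrocyte markers, Aqp4, Slc1a2 and Slc1a3 were highest there. Gfap and Gja1 were higher in WT replicate 1 and Aldoc in WT replicate 2, while Slco1c1 was lowest in RAG-/- replicate 2. RAG-/- replicate 2 had the lowest sum of 7 fibroblast markers, 6948, where the others lay between 14012 and 31391. Of the fibroblast markers, Pdgfra alone was lower elsewhere, at 2240 in RAG-/- replicate 3 and 2248 in RAG-/- replicate 2. RAG-/- replicate 2 had the lowest sum of 7 endothelial markers as well, 1805, where the others lay between 2256 and 6685. Of the endothelial markers, Kdr, Plvap and Vwf were lowest there, while Pecam1, Cdh5, Cldn5 and Tek were lower in RAG-/- replicate 3. No marker of these lists was at 0. Some markers of other cell types were bright too, with Mbp on average at the 99.9 percentile, Aldoc at 98.4, Snap25 at 97.5 and Dcn at 94.6. Others were dim, such as Slc17a7 at 37.6 and Pecam1 at 26.7. The share of epithelium in the samples was not tested. In a bulk sample, fewer epithelial cells and less RNA per cell cannot be told apart.

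Most of the genes were among the brightest on the arrays. Over the 6 arrays, the brightest probe set of each lay on average at the 99.6 percentile of all probe sets for Cab39l, 99.4 for Calml4, 99.2 for Cst3, 99.1 for Kl, 98.9 for Vat1l and 98.1 for F5. Ace followed at the 92.6 percentile, Wfdc2 at 89.3 and Tmem72 at 81.3. All 9 passed the filter on dim probe sets. These are ranks of probe sets within arrays and not amounts of RNA, since probe sets differ in brightness.

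Klotho signal, in its brightest probe set, was high in 5 arrays and lower in 1, which was still at the 97.7 percentile. The dimmer probe set, described below, was high in both arrays of pair 3. The brightest Kl probe set had deposited intensities of 15109, 6247 and 17349 in RAG-/- replicates 1, 2 and 3, against 13631, 16126 and 15201 in WT replicates 1, 2 and 3. RAG-/- replicates 1 and 3 lay within or above the WT range and RAG-/- replicate 2 far below it, so the groups overlapped. On the log2 scale after quantile normalization the mean was 13.52 ± 0.66 in RAG-/- and 13.86 ± 0.15 in WT (SD, n = 3 each). The difference, RAG-/- minus WT, was -0.34 (95% interval -1.04 to 0.37; limma adjusted p = 1; two-sided exact permutation p = 0.7, with 0.1 as the lowest value 3 against 3 arrays allow). Within pairs 1, 2 and 3 the differences were 0.07, -1.26 and 0.18. By title the difference was -0.38 (limma adjusted p = 1; exact permutation p = 0.5).

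Ace, whose enzyme makes angiotensin II, was set apart by its level in pair 3. Its brightest probe set had 2269, 1570 and 3852 in RAG-/- replicates 1, 2 and 3, against 1702, 2183 and 5465 in WT replicates 1, 2 and 3. Both arrays of pair 3 were above all others, and RAG-/- replicate 2 was again the lowest. The difference was -0.21 (95% interval -1.30 to 0.89), and by title, where all 3 pairs pointed down, it was -0.47 (95% interval -1.51 to 0.56). With the pair as a block the difference by title had an interval of -0.88 to -0.07 (limma adjusted p = 0.926).

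F5 and Wfdc2 had the widest spread of the 9 genes. Factor V is the cofactor with which factor Xa activates prothrombin. Its brightest probe set had 10565, 3147 and 13541 in RAG-/- replicates 1, 2 and 3, against 10287, 7748 and 13753 in WT replicates 1, 2 and 3. Both arrays of pair 2 were the lowest, and in pairs 1 and 3 the RAG-/- and WT arrays lay within 0.1 on the log2 scale. Wfdc2, which encodes a small secreted protein with WAP domains, had 2360, 646 and 2284 in RAG-/- replicates 1, 2 and 3, against 2095, 1432 and 2052 in WT replicates 1, 2 and 3. The same order held, with pair 2 lowest and RAG-/- replicate 2 below its WT partner. The differences were -0.45 (95% interval -1.52 to 0.61) for F5 and -0.31 (95% interval -1.50 to 0.88) for Wfdc2. By title they were -0.39 and -0.41.

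Cst3 varied more between pairs than within them. Its protein, cystatin C, inhibits cysteine proteases and is abundant in cerebrospinal fluid. It had 17233, 13276 and 10692 in RAG-/- replicates 1, 2 and 3, against 15629, 13400 and 10391 in WT replicates 1, 2 and 3. After quantile normalization the mean log2 values of pairs 1, 2 and 3 were 14.04, 13.84 and 13.25, while the differences within those pairs were 0.03, 0.14 and 0.01. In the deposited intensities RAG-/- replicate 2 was slightly below WT replicate 2, so the direction in pair 2 depended on the normalization. Cst3 was the only one of the 9 genes for which RAG-/- replicate 2 was not the lowest array. The difference between the groups was 0.06 by description (95% interval -0.57 to 0.70) and 0.04 by title. With the pair as a block the interval narrowed to -0.20 to 0.32 by description (limma adjusted p = 1).

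Among the genes of intracellular and membrane proteins, Calml4 resembled Kl. It had 19405, 7510 and 21819 in RAG-/- replicates 1, 2 and 3, against 16578, 15913 and 22423 in WT replicates 1, 2 and 3. RAG-/- replicate 2 was the one low array, and the difference was -0.29 by description (95% interval -1.02 to 0.43) and -0.37 by title. Tmem72 had 1187, 360 and 791 in RAG-/- replicates 1, 2 and 3, against 900, 712 and 846 in WT replicates 1, 2 and 3. Here RAG-/- arrays were both the highest and the lowest, with a difference of -0.24 by description (95% interval -1.29 to 0.82). By title the Tmem72 difference was -0.51 (95% interval -1.49 to 0.47), the largest of the 9 genes in that reading. Vat1l was the steadiest of the 9 genes, with an SD of 0.18 over the 6 arrays on the log2 scale. It had 12186, 8208 and 14427 in RAG-/- replicates 1, 2 and 3, against 10258, 11738 and 13566 in WT replicates 1, 2 and 3. The groups overlapped, and the difference was -0.05 by description (95% interval -0.49 to 0.38) and -0.15 by title.

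Cab39l encodes MO25 beta, a scaffold that holds the kinase LKB1 active and also activates the kinases SPAK and OSR1, which act on chloride cotransporters. It had 21668, 10769 and 19024 in RAG-/- replicates 1, 2 and 3, against 15288, 21046 and 18941 in WT replicates 1, 2 and 3. By description the groups overlapped, with a difference of -0.13 (95% interval -0.66 to 0.39). By title, after quantile normalization, the RAG-/- arrays all lay below the WT arrays, with a difference of -0.40 (95% interval -0.82 to 0.02; limma adjusted p = 1; exact permutation p = 0.1, the smallest possible). It was the only one of the 9 genes whose groups did not overlap by title. Of all 13537 genes tested, the groups did not overlap for 4.73% by title, with RAG-/- the lower for 2.53%. By description, where the groups of none of the 9 genes were apart, the shares were 3.1% and 1.41%. The separation was thin, since in pair 3 the arrays differed by -0.01, and in the deposited intensities RAG-/- replicate 3 was above WT replicate 3.

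**Figure D1:**
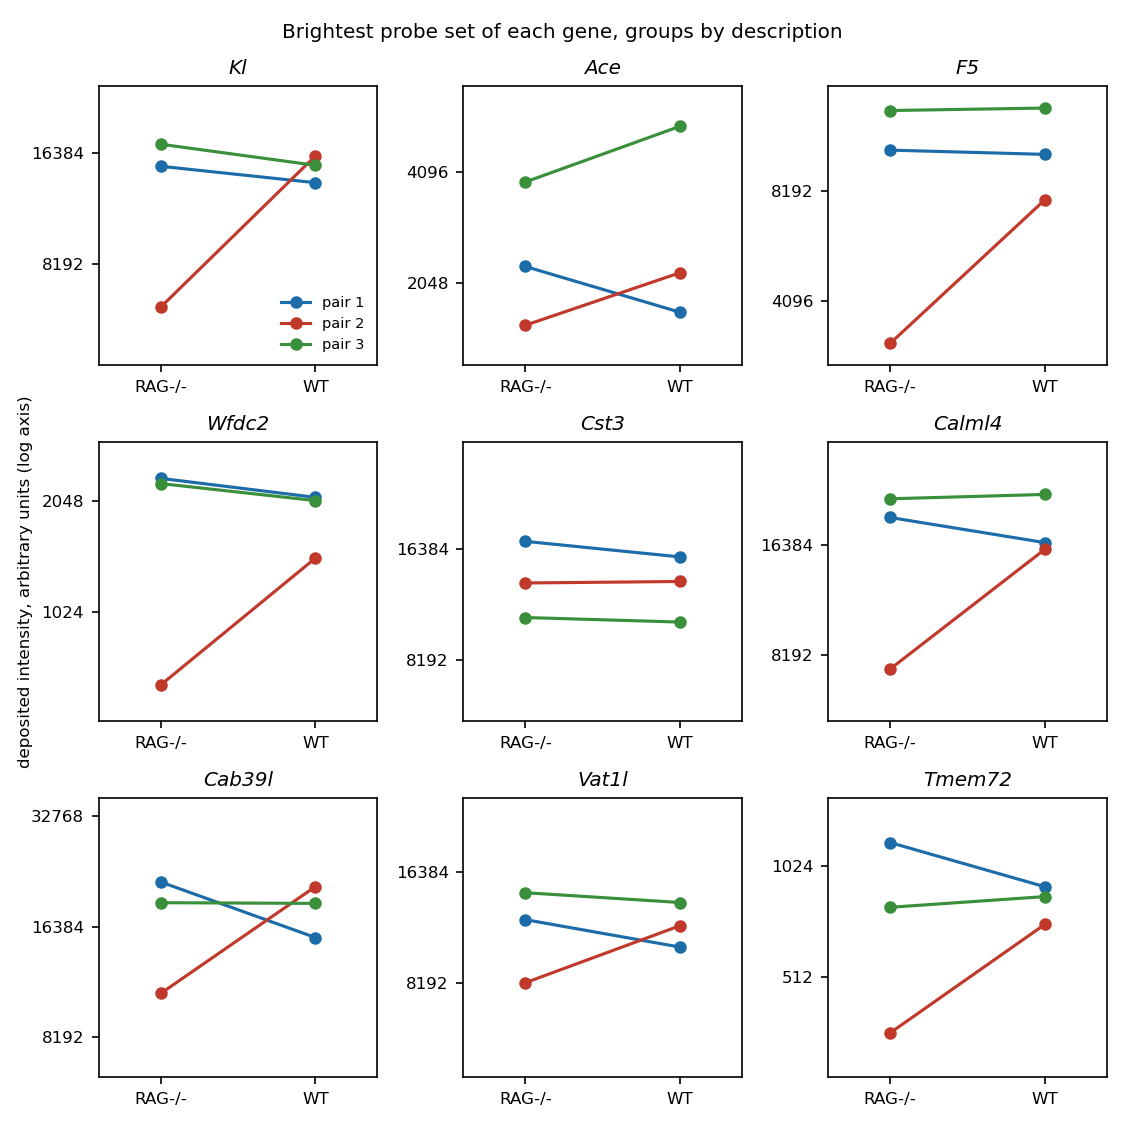
Deposited intensity of the brightest probe set of each of the 9 genes (arbitrary units, log axis), with RAG-/- at the left and WT at the right by description, and a line joining the 2 arrays of a pair. RAG-/- replicate 2, in pair 2, is the lowest array for every gene except Cst3, whose lines are nearly flat and ordered by pair.

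No gene of the set passed the test between RAG-/- and WT. With limma, 0 of the 9 genes had an adjusted p under 0.05 by description or by title, with or without the pair as a block. Over all 27022 probe sets tested, the share called was 0% by description and 0% by title, while 0.711% of probe sets by description (192) and 1.23% by title (332) had an unadjusted p under 0.05. Of the 9 genes, 0 had an unadjusted p under 0.05 by description and 0 by title. With the pair as a block there were 0 by description, beside 2.35% of all probe sets. By title with the block there were 2, Ace and Cab39l (limma adjusted p = 0.926 for each), beside 4.14% of all probe sets. That fit called 0.0037% of all probe sets at an adjusted p under 0.05. By description, 8 of the 9 genes had a negative difference, with a median of -0.24, where 51.1% of all genes tested were negative and their median was -0.01. By title 8 of 9 were negative, with a median of -0.39, where 53.9% of all genes were negative and their median was -0.02.

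By description, the negative differences were mainly those of pair 2. In pair 2, after quantile normalization, the median difference of the 9 genes was -0.97 and 8 of them were lower in RAG-/-, beside 52.5% of all genes. The exception, Cst3, was slightly lower in RAG-/- in the deposited intensities of that pair. In pair 1 the median was 0.15 by description and 8 of 9 were higher in RAG-/-, beside 53.1% of all genes, and by title these signs turn, so that 8 of 9 were lower. In pair 3 the median was 0.00, with 4 lower and 5 higher, beside 53.4% of all genes lower. RAG-/- replicate 2 was the lowest of the 6 arrays for 8 of the 9 genes and for 11 of their 13 tested probe sets, where it was the lowest for 31.1% of all genes. Without RAG-/- replicate 2, 1 of the 9 differences was negative by description and 6 were by title. The Kl difference was then 0.04 by description.

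**Figure D2:**
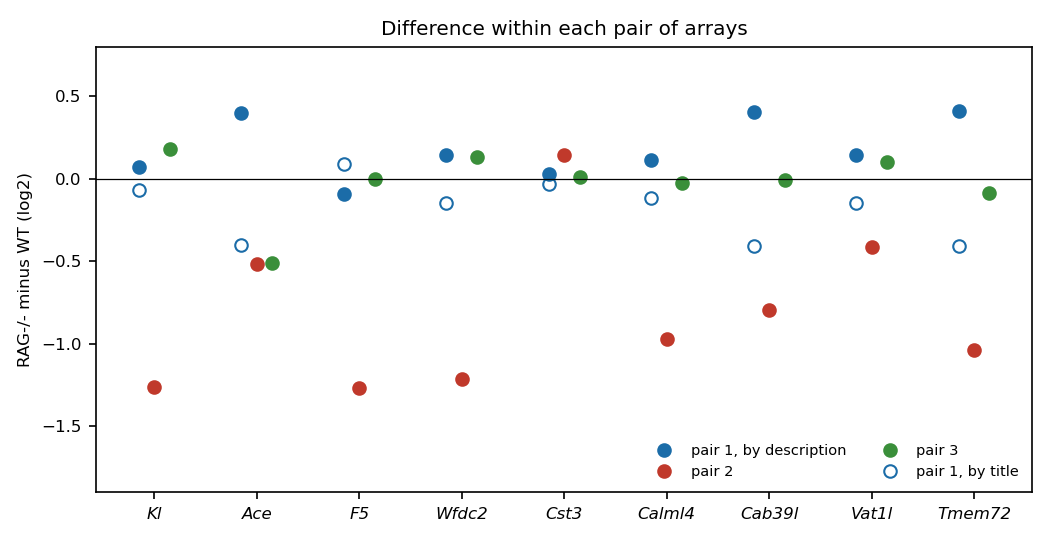
Difference RAG-/- minus WT within each pair (log2 scale) for the 9 genes, with filled points by description and open points for pair 1 by title. Pair 2 is below -0.4 for every gene except Cst3, and pair 3 lies within 0.2 of 0 for every gene except Ace, at -0.51.

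The position of RAG-/- replicate 2 was set beside its epithelial signal. Each gene was taken relative to the median log2 value of the 11 epithelial markers on the same array, from the values as deposited. That median was 13.94, 12.65 and 13.59 in RAG-/- replicates 1, 2 and 3, against 13.68, 13.96 and 13.50 in WT replicates 1, 2 and 3. Relative to it, Kl was at -0.05, -0.04 and 0.49 in RAG-/- replicates 1, 2 and 3, against 0.05, 0.02 and 0.40 in WT replicates 1, 2 and 3. RAG-/- replicate 2 no longer stood apart, and the SD of Kl over the 6 arrays was 0.24 on this scale and 0.54 as deposited. The SD was also smaller relative to the markers for Cab39l (0.20 and 0.38 as deposited), Tmem72 (0.28 and 0.56), Calml4 (0.37 and 0.58), Wfdc2 (0.43 and 0.71) and F5 (0.55 and 0.79). In all it was smaller for 6 of the 9 genes and for 16.6% of the 13537 genes tested. This centring raised the median difference of all genes to 0.31 by description and 0.47 by title, and with it 2 of the 9 differences were negative by description and 0 by title.

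On that scale some genes still differed between pairs. Kl, given above, was highest in both arrays of pair 3. Calml4 was too, at 0.82 in RAG-/- replicate 3 and 0.96 in WT replicate 3, and between 0.0017 and 0.34 in the other arrays. F5 and Wfdc2 also differed between pairs. F5 was at -0.57, -1.02 and 0.13 in RAG-/- replicates 1, 2 and 3, against -0.35, -1.04 and 0.25 in WT replicates 1, 2 and 3. Both arrays of pair 2 were low by a like amount, and both of pair 3 high. Wfdc2 showed the same, with -3.28 in RAG-/- replicate 2 and -3.46 in WT replicate 2 and the other arrays between -2.72 and -2.42. Cst3 went the other way, since relative to the markers it was at 1.05 in RAG-/- replicate 2 and between -0.25 and 0.25 in the other arrays. Astrocytes, like many brain cells, also make cystatin C. The part that the higher sums of astrocyte and neuronal markers on that array had in this value was not tested. The SDs of Cst3, Vat1l and Ace were larger relative to the markers than as deposited, at 0.49, 0.36 and 0.76 against 0.29, 0.29 and 0.70.

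**Figure D3:**
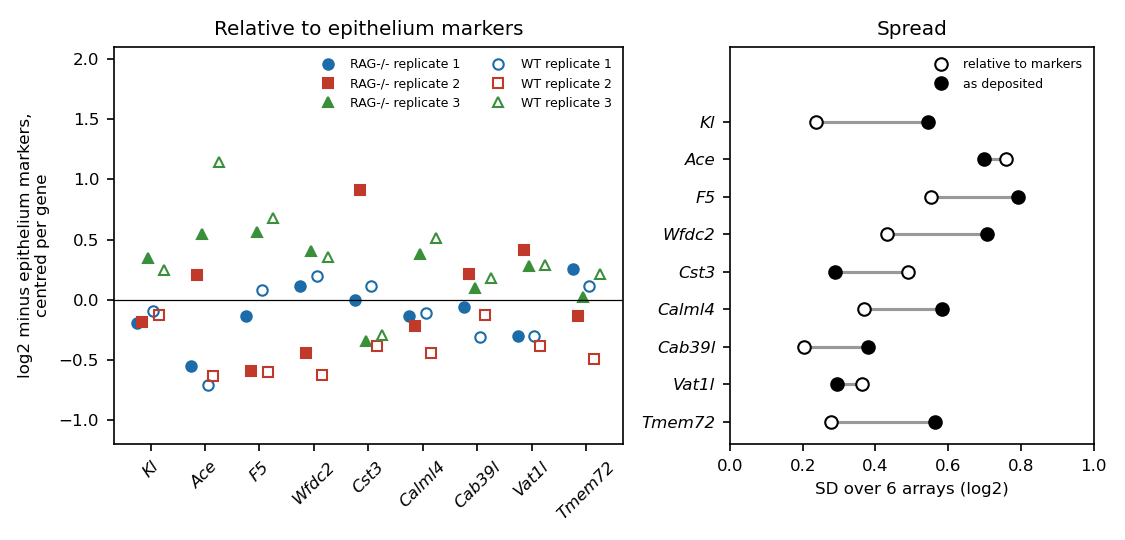
Left, log2 intensity of each gene minus the median of 11 epithelial markers on the same array, centred on the gene's mean over 6 arrays (filled, RAG-/-; open, WT; colour and shape, pair). Right, SD over the 6 arrays relative to the markers (open) and as deposited (filled): it is smaller relative to the markers for Kl, F5, Wfdc2, Calml4, Cab39l and Tmem72, and larger for Ace, Cst3 and Vat1l.

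The sequence before an annotated start is shown for Kl, Calml4, F5 and Ace, 4 of the 8 genes lowest in RAG-/- replicate 2. It is also shown for Cst3, which was not lowest there. Kl and Calml4 had like profiles, F5 was low in both arrays of pair 2, and Ace was high in both arrays of pair 3. The sequences are the 250 bases before that start, from RefSeq on GRCm38.p6, read 5′ to 3′ on the gene's own strand. For Calml4 the start used lies inside the gene, whose annotated span begins at 62857472. Capitals mark matches on either strand to GGGCGG for a GC box, CCAAT for a CAAT box, TATAAA for a TATA box, TAATCC for the core bound by the choroid plexus factor OTX2, or CACGTG for an E-box.
Kl, chr5:150952357-150952606, plus strand: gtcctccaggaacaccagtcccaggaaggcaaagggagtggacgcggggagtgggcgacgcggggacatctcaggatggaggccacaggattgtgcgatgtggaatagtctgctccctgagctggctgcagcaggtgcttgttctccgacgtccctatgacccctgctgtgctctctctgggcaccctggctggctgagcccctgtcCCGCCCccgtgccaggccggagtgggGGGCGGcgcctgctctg
Calml4, chr9:62857854-62858103, plus strand: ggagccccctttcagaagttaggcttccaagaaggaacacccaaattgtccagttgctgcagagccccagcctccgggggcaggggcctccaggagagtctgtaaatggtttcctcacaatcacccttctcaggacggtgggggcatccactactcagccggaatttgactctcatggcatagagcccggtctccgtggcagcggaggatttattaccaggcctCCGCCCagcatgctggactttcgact
F5, chr1:164151585-164151834, plus strand: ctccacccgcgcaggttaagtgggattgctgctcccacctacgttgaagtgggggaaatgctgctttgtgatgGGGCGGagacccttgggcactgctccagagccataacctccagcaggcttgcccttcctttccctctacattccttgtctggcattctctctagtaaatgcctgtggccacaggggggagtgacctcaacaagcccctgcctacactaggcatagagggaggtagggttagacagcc
Cst3, chr2:148875513-148875762, minus strand: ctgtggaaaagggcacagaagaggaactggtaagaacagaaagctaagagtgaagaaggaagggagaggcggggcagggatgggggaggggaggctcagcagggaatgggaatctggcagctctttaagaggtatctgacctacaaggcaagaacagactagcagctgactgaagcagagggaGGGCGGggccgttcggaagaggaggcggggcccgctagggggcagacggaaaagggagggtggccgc
Ace, chr11:105967698-105967947, plus strand: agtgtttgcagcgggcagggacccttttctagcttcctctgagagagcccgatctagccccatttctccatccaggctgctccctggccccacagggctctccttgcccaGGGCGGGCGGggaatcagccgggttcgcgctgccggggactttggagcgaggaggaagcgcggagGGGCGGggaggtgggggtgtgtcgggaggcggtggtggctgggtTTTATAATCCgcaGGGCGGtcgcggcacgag
A GC box was present in the windows of Kl, Calml4, F5, Cst3, Ace and Wfdc2, 6 of 9 genes counting every annotated start, and in 32.7% of the 32851 windows of this length. The OTX2 core was present in Ace and Vat1l, 2 of 9 genes, and in 6.25% of all windows. In Ace it shares bases with the TATA box, which was found in no other gene of the set and in 12.4% of all windows. A CAAT box was present in Ace, at another start, and in Cab39l, beside 33.8% of all windows, and an E-box in 0 of 9, beside 6.02%. The genes were counted over all their starts, and Ace, Cab39l and Wfdc2 had 2 windows each. The percentages are of single windows, so the counts of genes and these shares are unlike measures. These matches are letters in a window and show no binding.

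Probe sets of the same gene were compared where a gene had at least 2 that passed the filter, which held for Kl, F5, Ace and Cab39l. The measure was the root mean square difference of their log2 profiles over the 6 arrays after each was centred, with a median of 0.42 over the 6006 genes with 2 such probe sets. F5 agreed best, at 0.14, with its second probe set at 6439, 2276 and 7116 in RAG-/- replicates 1, 2 and 3, against 5947, 4947 and 6779 in WT replicates 1, 2 and 3. Cab39l was at 0.41 and Ace at 0.53. Kl agreed least, at 0.73. Its dimmer probe set, at the 74.2 percentile, had 462, 171 and 1027 in RAG-/- replicates 1, 2 and 3, against 385, 287 and 820 in WT replicates 1, 2 and 3. Both arrays of pair 3 were high there, which the brighter probe set did not show, while RAG-/- replicate 2 was lowest in both. The difference between the groups was -0.05 for this probe set and -0.34 for the brighter one, and within pairs both had the same sign. For Ace the second probe set, at the 77.0 percentile, had 584, 440 and 601 in RAG-/- replicates 1, 2 and 3, against 404, 673 and 489 in WT replicates 1, 2 and 3. Its pair 3 difference was 0.31, where that of the brighter probe set was -0.51, so the high Ace signal of pair 3 rested on 1 probe set. The second Cab39l probe set gave -0.25 by description and -0.72 by title, with overlapping groups, and 2 further Cab39l probe sets, at the 20.0 and 18.5 percentiles, did not pass the filter.

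**Figure D4:**
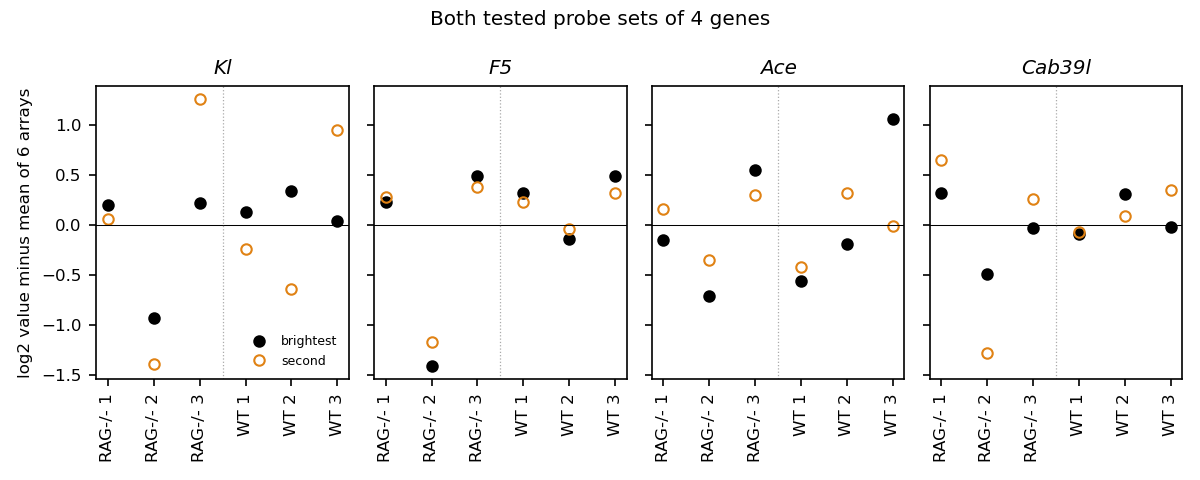
Log2 value of both tested probe sets of Kl, F5, Ace and Cab39l on each array, minus its mean over the 6 arrays (filled, brightest; open, second). Both F5 probe sets lie close together on every array, while those of Kl part in pair 3 and in WT replicate 2.

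Genes with a profile like that of Kl were sought over all genes tested, by the same root mean square difference over the 6 arrays. The nearest were Ezr, which encodes ezrin, a linker between membrane and actin in microvilli, at 0.04, Stim2, a calcium sensor of the endoplasmic reticulum, at 0.07, the lysosomal adaptor gene Rilp at 0.07, the lipid transporter gene Abca7 at 0.08 and Naaa, which encodes a lysosomal amidase, at 0.08. The median over all genes was 0.53. Ezr had 8743, 3535 and 9089 in RAG-/- replicates 1, 2 and 3, against 7546, 8470 and 7750 in WT replicates 1, 2 and 3, with RAG-/- replicate 2 as the one low array. With 6 arrays, of which 1 stood apart, such likeness rests mainly on that array. Within the set, Calml4 was nearest to Kl, at 0.17, and ranked 94 among all genes tested. The other members ranked between 472 and 8259, with Ace and Cst3, at 0.58 and 0.59, beyond the median over all genes. F5 and Wfdc2 were nearest to each other, at 0.13, as were Vat1l and Cab39l, at 0.18. Ace and Cst3 had no fellow member nearer than 0.48 and 0.42.

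Genes related to these proteins were read from lists. By description or by title, 0 members of any list passed the test (limma, smallest adjusted p over all probe sets 1 by description and 0.914 by title). For Klotho, 7 of 11 measured genes of FGF ligands, receptors and sheddases passed the filter, with a median difference of -0.07 by description and 0.02 by title. The sheddase gene Adam10 differed by -0.33 and the receptor gene Fgfr2 by -0.30 by description, and by title Fgfr2 differed by -0.44 and Adam17 by -0.33. For lysophosphatidic acid signalling, 8 of 11 passed the filter, with medians of -0.10 and -0.15. Its receptor gene Lpar4 differed by -0.52 and the ectoenzyme gene Enpp3 by -0.48 by description, and by title the receptor gene Lpar1, also a gene of oligodendrocytes, differed by 1.32 and the phosphatase gene Plpp2 by -0.38. Oligodendrocyte markers were higher in all 7 measured genes under both readings, with medians of 1.08 and 1.24, and 0 of the 7 passed. The sum of these markers was 33216, 60095 and 78952 in RAG-/- replicates 1, 2 and 3, against 41121, 34026 and 34245 in WT replicates 1, 2 and 3, and its part in the Lpar1 value was not tested.

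For the angiotensin system, 6 of 9 passed the filter, with medians of -0.17 by description and 0.11 by title. The peptidase gene Enpep differed by -0.72 and the receptor gene Agtr1a by -0.38 by description. By title the receptor gene Agtr1b differed by 1.02 and the peptidase gene Mme by -0.54. Agtr1a and Agtr1b were dim, at the 42.9 and 40.8 percentiles, and Agtr1b had 259 in WT replicate 1 and between 24.1 and 92.0 elsewhere. In the other lists Enpp3, F8 and Wnk3 were dim as well, at the 48.5, 46.3 and 48.9 percentiles. For coagulation, 9 of 13 passed the filter, with medians of -0.37 and 0.13. Procr and Thbd, the protein C receptor and thrombomodulin of endothelium, differed by -1.03 and -1.07 by description, where the 6 tested endothelial markers were all lower, with a median of -0.49, and by title Lman1, a cargo receptor for factor V, differed by -0.25 and F8 by 0.30. For cathepsins and other cystatins, 9 of 11 passed the filter, with medians of -0.18 and -0.18. Ctsk and Ctsc, both cysteine proteases, differed by -0.50 and -0.53 by description, and by title Ctsc differed by -0.84 and Ctsz by -0.51. For WAP domain proteins, 4 of 8 passed the filter, with medians of -0.06 and 0.05. Wfikkn2 differed by -1.24 and Wfdc3 by -0.10 by description, and by title Slpi, a protease inhibitor, differed by 1.09 and Wfikkn2 by -0.49.

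For the kinases around MO25, all 14 genes passed the filter, with medians of -0.05 by description and -0.25 by title. Wnk3, a kinase upstream of SPAK and OSR1, differed by 0.89 and Oxsr1, which encodes OSR1, by -0.29 by description, and by title Slc12a2, the sodium, potassium and chloride cotransporter that they regulate, differed by -0.28 and Wnk3 by 0.93. Slc12a2 had 22069, 13562 and 19635 in RAG-/- replicates 1, 2 and 3, against 16549, 23118 and 18838 in WT replicates 1, 2 and 3, so that, as for Cab39l, RAG-/- replicate 1 was above its WT partner and RAG-/- replicate 2 below it. For genes of microvillar proteins, read beside Calml4 and not all known as its partners, 3 of 8 passed the filter, with medians of -0.45 and 0.00. Of these 3, only Ezr was bright, at the 97.7 percentile. Cdhr5 and Myo7b, which in the gut encode a protocadherin and a myosin of brush border microvilli, were dim, at the 39.0 and 42.4 percentiles, and differed by -0.59 and -0.45 by description. By title Ezr differed by -0.40 and Cdhr5 by 0.37.

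The labels were compared with the signal of the targeted genes. Rag1 and Rag2 were dim, at the 26.9 and 26.3 percentiles. Rag1 had 7.19, 116 and 62.1 in RAG-/- replicates 1, 2 and 3, against 74.0, 1.86 and 4.39 in WT replicates 1, 2 and 3, so that the higher value of each pair was in the array titled RAG. Rag2 had 26.7, 16.03 and 46.6 in RAG-/- replicates 1, 2 and 3, against 5.30, 9.35 and 126 in WT replicates 1, 2 and 3. For Rag2 the array titled RAG was higher in pair 2 and lower in pairs 1 and 3. The position of these probe sets on the disrupted gene was not examined, and the signals do not settle which reading is right. Wfdc2 and Cst3 lie on chromosome 2, as Rag1 and Rag2 do, but far from them. The annotated spans begin at base 101624712 for Rag2, 101638252 for Rag1, 148871722 for Cst3 and 164562715 for Wfdc2. The differences of Wfdc2 within pairs 1, 2 and 3 were 0.15, -1.21 and 0.13 by description, and by title that of pair 1 was -0.15. Those of Cst3, given above, were all within 0.2 of 0.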

How the data were processed

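The authors deposited linear intensities of 45101 probe sets on 6 single-colour arrays. The software that made them is not given in the sources used here. The mean without the outer 2% at either end was 500.003 on all arrays, which shows scaling of each array to a common mean, and the lowest value was 0.0791, so no floor was set.

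After removal of 64 control probe sets, the log2 of intensity plus 16 was quantile normalized; this pseudocount understates changes of dim probe sets. Probe sets in the lowest 40% of mean value were left out of the test, which left 27022. Of 45037 probe sets, 34945 had 1 gene symbol, 932 several and 9160 none here, and 34741 of those with 1 symbol matched a gene number in the RefSeq table of GRCm38.p6, whose symbol was then used. The brightest probe set stood for a gene (13537 genes tested). Percentiles and intensities are as deposited. Differences, RAG-/- minus WT, were tested with limma 3.58.1 in R 4.3.3 (lmFit, eBayes with trend, two-sided, Benjamini-Hochberg over all probe sets tested, threshold 0.05). The fit was tested on simulated data. With 3 arrays a group, their number limits the precision.

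The title codes were taken to pair the arrays, since deviations from group means had correlations of 0.29, 0.39 and 0.58 for arrays of one code and of -0.42 to 0.01 for arrays of different codes. Alternatives were the pair as a block, groups by title, other pseudocounts, no filter, no quantile normalization, centring on epithelial markers, array weights and leaving out arrays or pairs. The genes, lists and alternatives were chosen with earlier results of these data known. Genes named were the members, the 5 nearest to Kl, the nearest fellow members, 2 of each list with the smallest p by description and 2 by title, the markers, and Rag1 and Rag2. Features of the proteins, planned beforehand, were not computed, since no protein sequences were used here.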

Additional observations from a re-analysis of the deposited data

How the results depend on the processing

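Counts of probe sets called were 0 by description and 0 by title, and also 0 with a pseudocount of 1 or 64, with no filter and with the values as deposited. By description the count was 0 with the pair as a replicate block and with array weights, 1 when arrays were centred on the epithelial markers, and between 0 and 4 when 1 array or 1 pair was left out. By title it was 1 with the replicate block, 3 with the centring and 2 with array weights. The probe sets called were Xist, Pttg1 and unnamed ones, seen after the fits were made, and none belonged to the 9 genes. Without RAG-/- replicate 2 the count by description was 4, made up of Xist, at -4.83, and unnamed probe sets at 7.92, 5.50 and 4.82. Sex was part of no fit, and whether the sex of the mice differed between the groups was not tested.

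The number of the 9 genes lower in RAG-/- was 8 by description, 2 with the centring, 3 with array weights, and between 1 and 9 with arrays or pairs left out. By title it was 8, and 0 with the centring. With the centring the differences by description turned to 0.13 for Ace, 0.0517 for Wfdc2, 0.0220 for Calml4, 0.10 for Tmem72, 0.26 for Vat1l and 0.17 for Cab39l, below the 0.31 of all genes. By title they turned to 0.0476 for Kl, 0.0271 for Ace, 0.0368 for F5, 0.11 for Wfdc2, 0.0395 for Calml4, 0.00873 for Tmem72, 0.26 for Vat1l and 0.00148 for Cab39l, below 0.47 for all genes. With array weights they turned by description to 0.0879 for Ace, 0.0272 for Wfdc2, 0.14 for Tmem72, 0.0454 for Vat1l and 0.10 for Cab39l, and by title to 0.0911 for F5 and 0.0442 for Wfdc2. As deposited, Cst3 by title was -0.0377. The cause was not tested.

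With arrays or pairs left out, the difference by description ranged from -0.58 to 0.13 for Kl, from -0.54 to 0.26 for Ace, from -0.80 to 0.14 for F5, from -0.64 to 0.33 for Wfdc2, from -0.50 to 0.10 for Calml4, from -0.61 to 0.28 for Tmem72, from -0.15 to 0.30 for Cst3, from -0.16 to 0.13 for Vat1l and from -0.41 to 0.20 for Cab39l. By title the ranges crossing 0 were -0.64 to 0.0585 for Kl, -0.73 to 0.21 for F5, -0.73 to 0.21 for Wfdc2, -0.59 to 0.0117 for Calml4 and -0.18 to 0.28 for Cst3. Of the gene differences under all alternatives, 137 by description and 128 by title kept direction and side of the threshold, while 29 and 20 reversed. Those kept include the replicate block and the fit without a filter, which cannot change a difference between these balanced groups. The replicate block changed no call of the 9 genes.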
